A study of Arabidopsis thaliana with 8 samples.

Results

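Cytosines in the CHH context (where H stands for any base but G) are described here for the chromosome arms, outside repeats of the dinucleotide CT. The authors listed them as differing in DNA methylation between selected and ancestral Arabidopsis thaliana plants, at an unadjusted p of at most 0.05. They were chosen from 6 deposited lists of differentially methylated cytosines (DMCs) by 3 criteria that use position and reference sequence only. The cytosine had to be in the CHH context of the TAIR10 genome and outside the intervals named below. It also had to lie outside any run of 4 or more CT dinucleotides read 5′ to 3′ on its strand. The intervals left out were 11.5 to 17.7 Mb on chromosome 1, 1.1 to 7.2 and 17.8 to 18.3 Mb on chromosome 2, 10.3 to 17.3 Mb on chromosome 3, 1.5 to 6.3 Mb on chromosome 4 and 9 to 16 Mb on chromosome 5. The segment at 17.8 to 18.3 Mb of chromosome 2 was not counted among the pericentromeres. This left 6530 of the 71531 listed entries (9.13%), which fall on 5523 distinct cytosines, 2986 of them in CVL39 and 2640 in CVL125. They are called arm CHH DMCs below.

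Both lines are recombinant inbreds that hold a mixture of the Ler and Cvi genomes. This mixture was not fully fixed. The paper reports a chromosome segment that was heterozygous for Ler and Cvi in the CVL125 population. It also reports residual heterozygosity at a few sites in ancestral CVL39 plants. The part of genetic differences between pools in the lists was not tested. Each line was represented by 1 ancestral pool that had undergone no selection and by 3 selected pools, from populations kept for 5 generations in replicate landscapes 1, 5 and 6 and then propagated for 2 generations without selection. Each pool combined DNA of 4 plants, harvested above ground as a whole at an age of 25 days, so a list compares 2 mixtures of plants and not individuals. All lists of a line rest on its only ancestral pool. They give a p-value for each cytosine but no methylation level, read count or direction of change, so it is unknown whether a listed cytosine gained or lost methylation in the selected pool, and what depth lies behind it. The paper describes the sequencing as a low-coverage pilot.

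Methylation of CHH cytosines has no partner cytosine on the opposite strand, so it cannot be copied after replication and has to be laid down again in every cell cycle. In Arabidopsis, DRM2 does this where small RNAs guide it (RNA-directed DNA methylation), typically at short transposons and their edges in chromosome arms. CMT2 does it in heterochromatin, mostly in long transposons near the centromeres, and prefers the subcontexts CAA and CTA. The bodies of many active protein-coding genes carry CG methylation and hardly any in CHH.

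The reference sequences below show the surroundings that the results turn on, with listed cytosines in capitals on the listed strand, 5′ to 3′. The first are tight single-strand groups in pyrimidine-rich sequence, in the 5′ UTRs of ATCSLA09 (chr5:990432-990461, minus strand) and AT3G23750 (chr3:8558255-8558284, plus strand) and upstream of bZIP23 (chr2:7278738-7278773, plus strand), all listed in CVL39. Next are groups of CVL125, near OXS2 (chr2:17488868-17488904, minus strand), near AT3G23725 (chr3:8538123-8538159, minus strand) and in the CDS of FIP2 (chr4:9593830-9593886, plus strand). A group in the 3′ UTR of AT5G47540 (chr5:19283113-19283142, minus strand) lies in a CA repeat. The last are single members in the pseudogenes AT1G27560 (chr1:9571956-9571976, plus strand) and AT3G23085 (chr3:8210004-8210024, minus strand), in the CAA and CTA subcontexts.
ATCSLA09: atcatcttCtCcttCtCCaCCtttcattat
AT3G23750: CaatCtcCttCttcCtCCtCCtCCtCCttC
bZIP23: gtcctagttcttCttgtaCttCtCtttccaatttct
OXS2: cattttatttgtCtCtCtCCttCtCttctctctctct
AT3G23725: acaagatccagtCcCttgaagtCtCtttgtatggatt
FIP2: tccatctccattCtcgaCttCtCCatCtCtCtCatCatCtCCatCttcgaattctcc
AT5G47540: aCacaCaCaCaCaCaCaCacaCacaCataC
AT1G27560: ttagcagactCaagcgtagta
AT3G23085: aaagcatttgCtagcttgaaa

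By landscape, in the order 1, 5 and 6, there were 1039, 1120 and 1213 arm CHH DMCs in CVL39 and 1145, 1224 and 789 in CVL125. As background, all contexts together, the lists hold 0.0263%, 0.0294% and 0.0297% of the 42859516 nuclear cytosines in CVL39 and 0.0293%, 0.0328% and 0.017% in CVL125. The arm CHH DMCs were 0.00456%, 0.00492% and 0.00533% of the 22776466 CHH cytosines of arms outside runs in CVL39, and 0.00503%, 0.00537% and 0.00346% in CVL125. They thus lie below the background share in every list. Per 100000 cytosines of the own context, the lists held 3.46 to 5.37 arm CHH DMCs, against 7.20 to 12.2 CHG DMCs and 44.8 to 121 CG DMCs of the same arms and 23.8 to 35.1 CHH DMCs of the pericentromeres. Not every cytosine of the genome will have been tested, and the tested ones are unknown, so these shares are lower limits on the share of tested cytosines.

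The p-values were seldom small. The median p of the arm CHH DMCs lay between 0.0274 and 0.0303 in the 6 lists, and 8.75% to 12.7% were under 0.005. For CG DMCs of the arms the same ranges were 0.0150 to 0.0256 and 15.6% to 31.1%. The p-values are unadjusted and reach 0.05, so chance calls are to be expected among the members, and their share was not tested.

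CVL39 and CVL125 yielded similar numbers of arm CHH DMCs per list, 1124 ± 87.1 and 1053 ± 232 (SD, n = 3 lists each; exact permutation test over lists, two-sided, p = 0.9, smallest possible p 0.1). None of the 5 comparisons between lines passed after Benjamini-Hochberg adjustment, and with 3 lists on each side none could. Landscape 6 of CVL125, the shortest list, decided the sign of the difference in number: without landscape 6 in either line, CVL125 had 105 more per list. The share in CAA or CTA was 35.1% ± 0.794 in CVL39 and 31.0% ± 2.83 in CVL125 (SD, n = 3; exact permutation p = 0.1, adjusted p = 0.5), the lists of the lines not overlapping, if barely, at 34.3% or more against 34.2% or less. The share in protein-coding gene bodies was 53.5% ± 1.22 against 59.8% ± 4.50 (n = 3, exact permutation p = 0.2, adjusted p = 0.5). The share under a p of 0.005 was 11.2% ± 1.29 against 10.96% ± 1.95 (n = 3, exact permutation p = 0.9, adjusted p = 0.9).

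Relative to genes, the arm CHH DMCs were concentrated in annotated pseudogenes. The annotation marks no transposons as such, and its pseudogenes may include transposon genes, so pseudogenes and transposons cannot be told apart here. Between 17.0% and 23.2% of them lay in a pseudogene, where 2.28% of the CHH cytosines of arms lie, a ratio of 7.46 to 10.2. In landscapes 1, 5 and 6 this was 227, 260 and 274 members in CVL39 and 206, 208 and 172 in CVL125. Protein-coding sequence (CDS) held 34.2% to 40.7% of the members and 38.8% of the cytosines, close to an even spread. Introns held 4.91% to 6.72% against 17.3%, and 3′ UTRs held 0.887% to 3.68% against 6.76%, both below their share in every list.

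The 5′ UTRs were the only other place above its share of cytosines in all 6 lists, with 6.97% to 16.3% of the members and 5.88% of the cytosines. There were 103, 119 and 108 members in 5′ UTRs in CVL39 and 161, 200 and 55 in CVL125, a spread among the CVL125 lists that exceeds the difference between lines. RNA genes, with 110 members, held 0.836 to 1.55 times their share and were above it in all lists of CVL39 and in landscape 1 of CVL125. The kilobase upstream of protein-coding genes, where RNA-directed methylation is often found, held 7.16% to 9.91% against 13.4% of the cytosines. Cytosines more than 1 kb from any protein-coding gene were near their share, with 7.34% to 9.05% against 8.77%. These lie outside pseudogenes and RNA genes but may be next to them.

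**Figure D1:**
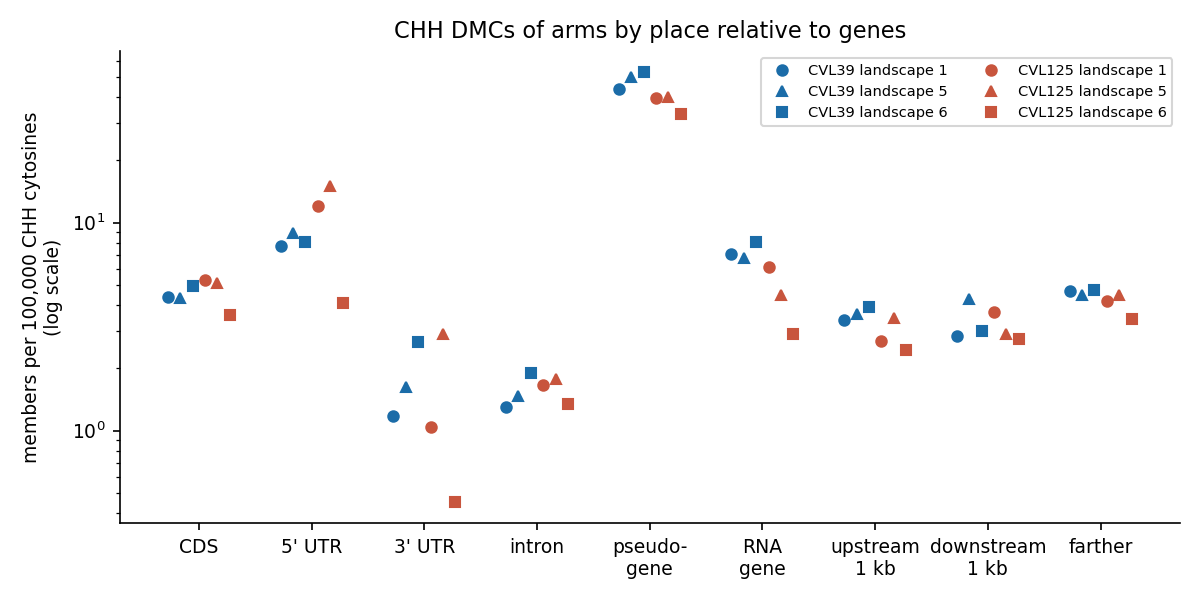
Members per 100,000 CHH cytosines of each place (log scale) in the 6 lists, blue for CVL39 and red for CVL125, with circles, triangles and squares for landscapes 1, 5 and 6. Pseudogenes stand at 33.1 to 52.8, above every other place in all lists, and introns at 1.29 to 1.90.

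Compared with other DMCs of the same lists, the share of arm CHH DMCs in protein-coding gene bodies, relative to all cytosines of the context, was 0.824 ± 0.0658 (SD, n = 6 lists). This was above the 0.639 ± 0.0559 of CHG DMCs in 6 of 6 lists and below the 1.30 ± 0.00827 of CG DMCs in 6 of 6 lists (n = 6, exact sign-flip permutation test over lists, two-sided, p = 0.03125, adjusted p = 0.0446 for both). It was also above the 0.314 ± 0.0264 of CHH DMCs of the pericentromeres in 6 of 6 lists (n = 6, same exact test, adjusted p = 0.0446). With pseudogenes and RNA genes counted as genes this last difference turned over, to 1.09 for the arms and 1.14 for the pericentromeres (arms lower in 6 of 6 lists, n = 6, same exact test, adjusted p = 0.0446). The smallest p that 6 lists allow is 0.03125, and 7 of the 10 comparisons within lists reached it. An adjusted p of 0.0446 needs all 7, so it is lost wherever a setting moves 1 of them, as given in the closing section. Since 3 lists rest on each ancestral pool they are not fully independent, which the test does not take into account.

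The subcontexts of the members differed between places. Over all members, CAA was 1.02 to 1.29 times and CTA 1.05 to 1.27 times as frequent as among the CHH cytosines of arms, CTC 1.18 to 1.66 times, and CAT 0.491 to 0.774 times. In pseudogenes, 51.8% of the 1347 members were in CAA or CTA, 2.07 times the 25.1% of the CHH cytosines there, with lists between 1.89 and 2.25 times. In 5′ UTRs, only 11.8% of the 746 members were in CAA or CTA, 0.430 times the 27.4% of the cytosines, with lists between 0.346 and 0.613 times. In CDS the ratio was 1.19, and in the upstream kilobase 0.982. With the pyrimidine tracts defined below left out, the ratio was 0.785 in 5′ UTRs, 1.41 in CDS and 1.07 in the upstream kilobase.

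For comparison, the CHH DMCs of the pericentromeres were in CAA or CTA 1.98 ± 0.0370 times as often as the CHH cytosines there, and the arm CHH DMCs 1.18 ± 0.105 times (SD, n = 6 lists each). The difference, arms minus pericentromeres, was -0.805 and had the same sign in 6 of 6 lists (n = 6, exact sign-flip permutation test over lists, two-sided, p = 0.03125, adjusted p = 0.0446). The ratio of members in pseudogenes of the arms thus lay beside that of the pericentromeres, while the other places with over 200 members lay below both, at 0.430 to 1.26. Of the places with fewer, RNA genes (110 members) stood in between at 1.68, with lists from 1.45 to 1.90. The 3′ UTRs (152 members) stood at 0.959.

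**Figure D2:**
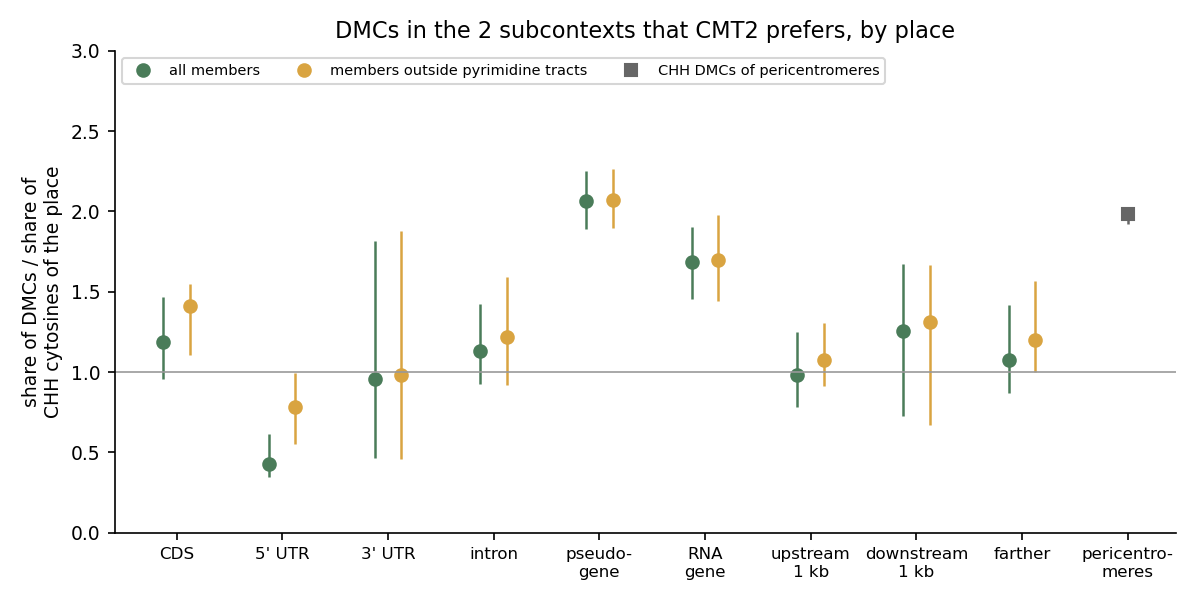
Share of members in CAA or CTA divided by the share of the CHH cytosines of the same place, over the 6 lists together, with lines from the lowest to the highest list; the square is the mean over lists for CHH DMCs of pericentromeres. Pseudogenes stand at 2.07, near the 1.98 of the pericentromeres, and 5′ UTRs at 0.430. Green marks all members and yellow those outside the pyrimidine tracts defined below, where 5′ UTRs stand at 0.785.

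The printed sequences of ATCSLA09 and AT3G23750 show a second feature of the members, which was seen in the data and then measured, so no test is given for it. A pyrimidine tract is here a site with C or T at 18 or more of the 20 flanking bases, 10 on either side, on the listed strand. Although runs of 4 or more CT had been left out, 109, 115 and 85 members of CVL39 (10.5%, 10.3% and 7.01%) and 271, 274 and 99 members of CVL125 (23.7%, 22.4% and 12.5%) lay in such tracts, 953 in all. Of the CHH cytosines of arms, 0.797% do. The lists of the lines do not overlap, and the highest share of CVL39 is 10.5% (exact Clopper-Pearson 95% interval 8.69% to 12.5%) and the lowest of CVL125 12.5% (10.3% to 15.1%), so the nearest lists differ by less than their counting error. These intervals cover counting error only. Among CHG DMCs of arms the share in tracts was 0.206% to 0.405%, against 0.114% of the CHG cytosines there. For CG DMCs it was 0.0259% to 0.163% against 0.118%, and for CHH DMCs of pericentromeres 1.32% to 3.97% against 0.580%. CG and CHG cytosines have a G among their flanking bases, so fewer of them can be in tracts.

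The lists with many members in tracts are those with many DMCs in CT runs, which the selection of the members had removed. Of all CHH DMCs of arms, such runs held 37.7% and 39.4% in landscapes 1 and 5 of CVL125, 8.04% in landscape 6 of CVL125, and 6.56%, 13.3% and 5.75% in CVL39. The part of read depth, alignment in repeated sequence and bisulfite conversion in this was not tested.

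**Figure D3:**
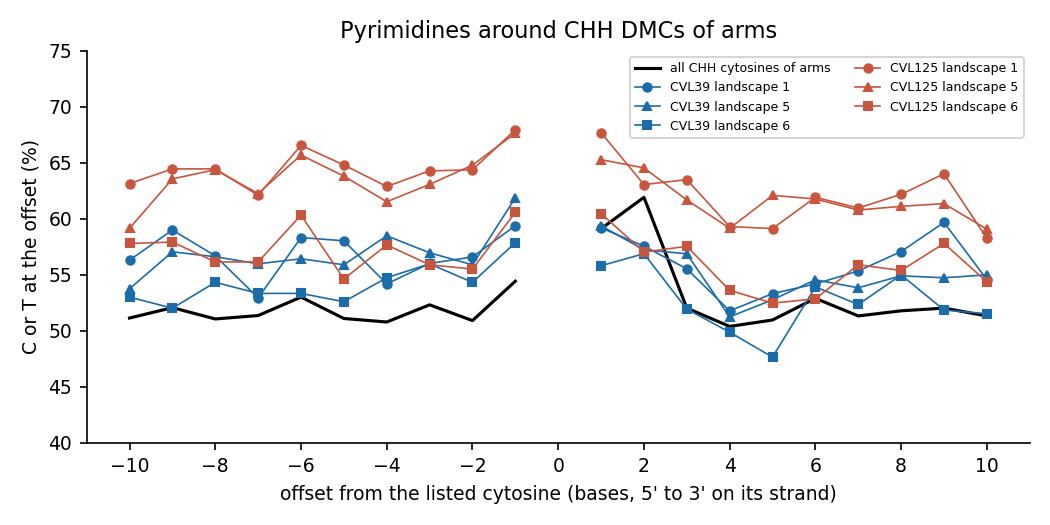
Percentage of C or T at each base from 10 before to 10 after the listed cytosine, on its strand, in the 6 lists and among all CHH cytosines of arms (black). The lists of CVL125 landscapes 1 and 5 run between 58.3% and 67.9% over the whole window, against 50.4% to 61.9% for all cytosines.

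Members in tracts and the rest sat in different places. Of the members in 5′ UTRs, 48.5% were in tracts, against 2.92% of the CHH cytosines of 5′ UTRs. Of the members in CDS, 17.2% were, and of those in pseudogenes 0.817%, near the 0.510% of the cytosines there. With tracts left out, 5′ UTRs held 0.630 to 1.46 times their share of cytosines, and pseudogenes 9.49 to 11.3 times. Thus the excess in 5′ UTRs was present in only some lists outside tracts, and that in pseudogenes in all of them. Few tract cytosines are in CAA or CTA, at 0.262% and 1.86% of the tract CHH cytosines of arms. With tracts left out, the ratio for CAA or CTA was 0.785 in 5′ UTRs, with lists between 0.554 and 0.993, and 2.07 in pseudogenes. Outside tracts, CAA was 1.32 to 1.42 times and CTA 1.28 to 1.45 times as frequent as among the cytosines, and the lines had nearly the same share in both together, 38.6% in CVL39 and 38.2% in CVL125 (n = 3 each, exact permutation p = 0.6, adjusted p = 0.6).

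The strand of the tracts depended on the place. In CDS, 322 of 408 tract members that could be assigned were on the template strand and 86 on the coding strand (21.1% coding, lists from 16.7% to 28.0%), where 34.6% of the tract cytosines of CDS are on the coding strand. In 5′ UTRs, 289 of 362 were on the coding strand (79.8%, lists from 73.3% to 90.7%), against 72.7% of the tract cytosines, and in introns all 30 were, against 91.9%. Outside tracts, members in 5′ UTRs were on the coding strand in 70.5% of cases (lists from 56% to 76.6%), against 56.6% of the cytosines. In introns this was 64.6% (56.9% to 69.8%) against 47.1%, and in 3′ UTRs 55.7% (33.3% to 70.7%) against 45.3%. In CDS it was 55.3% (51.7% to 58.7%) against 44.2%, so the excess on the template strand of CDS was found in tracts only.

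Neighbouring members tended to lie on 1 strand. Of neighbours 1 to 5 bp apart, 749 of 756 pairs (99.1%) were on the same strand, of those 11 to 20 bp apart 92.3%, of those 41 to 50 bp apart 70.0%, and of those 101 to 200 bp apart 54.3%. Beyond 1000 bp the lists had 47.1% to 52.4%. An opposite-strand cytosine reads as G, which the bases H exclude, so the context itself limits opposite-strand pairs 1 or 2 bp apart. Of the same-strand pairs, 246 were 1 bp and 214 were 2 bp apart. The same-strand share of all CHH cytosines of arms at these distances was not measured. Of neighbours 3 to 50 bp apart, 93.0% ± 3.40 were on the same strand (SD, n = 6 lists), against 85.6% ± 5.50 for CHG DMCs and 92.2% ± 2.65 for CG DMCs of arms. Neither difference passed (n = 6, exact sign-flip permutation tests over lists, adjusted p = 0.104 with 5 of 6 lists higher, and adjusted p = 0.562 with 3 of 6). Of same-strand neighbours up to 50 bp apart, 16.0% to 33.8% had the same p-value in a list, against 2.56% to 5.39% of neighbours over 1000 bp apart. Whether such neighbours were covered by the same reads cannot be told from the lists, and the part of shared reads was not tested.

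**Figure D4:**
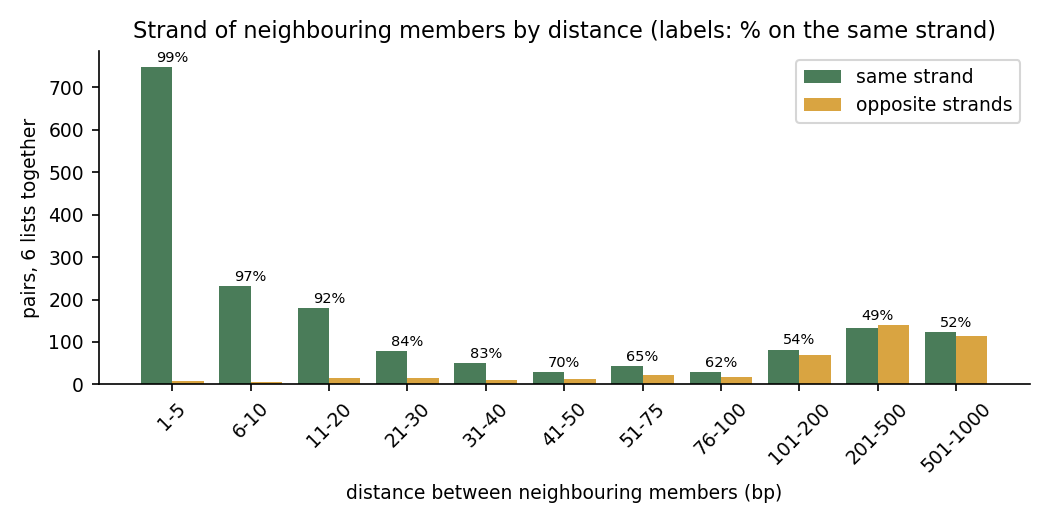
Number of neighbouring pairs of members on the same strand (green) and on opposite strands (yellow) by distance, the 6 lists together, with the percentage on the same strand above each pair of bars. It falls from 99.1% at 1 to 5 bp to 54.3% at 101 to 200 bp. In the first pair of bars the CHH context itself limits opposite-strand pairs.

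A strand cluster is here 3 or more members of 1 list on 1 strand, each at most 50 bp from the next. There were 263 such clusters over the 6 lists, with 1052 members (16.1%), a median of 3 members and a median span of 18 bp. The largest had 16 members and the longest spanned 89 bp. In landscapes 1, 5 and 6 there were 32, 48 and 36 clusters in CVL39 and 56, 70 and 21 in CVL125. The share of members in clusters was 14.0% ± 2.25 in CVL39 and 17.5% ± 6.37 in CVL125 (SD, n = 3; exact permutation p = 0.4, adjusted p = 0.667), the CVL125 lists spanning those of CVL39. Without tract members the order of the lines was the other way round, at 11.7% and 10.2% (n = 3, exact permutation p = 0.5, adjusted p = 0.6).

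Clustering set the arm CHH DMCs apart from CHG DMCs of the same lists, of which 1.66% ± 0.784 were in clusters so defined, against 15.7% ± 4.69 of the members (SD, n = 6; higher in 6 of 6 lists, exact sign-flip permutation p = 0.03125, adjusted p = 0.0446). The arms outside runs hold 4581949 CHG and 22776466 CHH cytosines, and the part of this difference in the clustering was not tested. Among CHH DMCs of pericentromeres the share was 9.87% ± 1.36, below the members in 6 of 6 lists (n = 6, same exact test, adjusted p = 0.0446). Without sites in tracts this last difference shrank from 5.84 to 2.10 percentage points and did not pass (5 of 6 lists, n = 6, exact sign-flip p = 0.0938, adjusted p = 0.134). By place, 29.8% of members in 5′ UTRs and 25.7% of those in 3′ UTRs were in clusters, 16.2% of those in CDS, and 8.54% of those in pseudogenes.

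Members in tracts were clustered more often than the others in every list, with 25.3% to 44.3% against 8.12% to 16.7%. They were also listed again more often in another landscape of the line, with 33.0% to 51.3% against 17.1% to 26.2%. A tract by definition has mostly C or T on the listed strand, which favours same-strand neighbours. The part of this in the clustering of tract members was not tested.

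**Figure D5:**
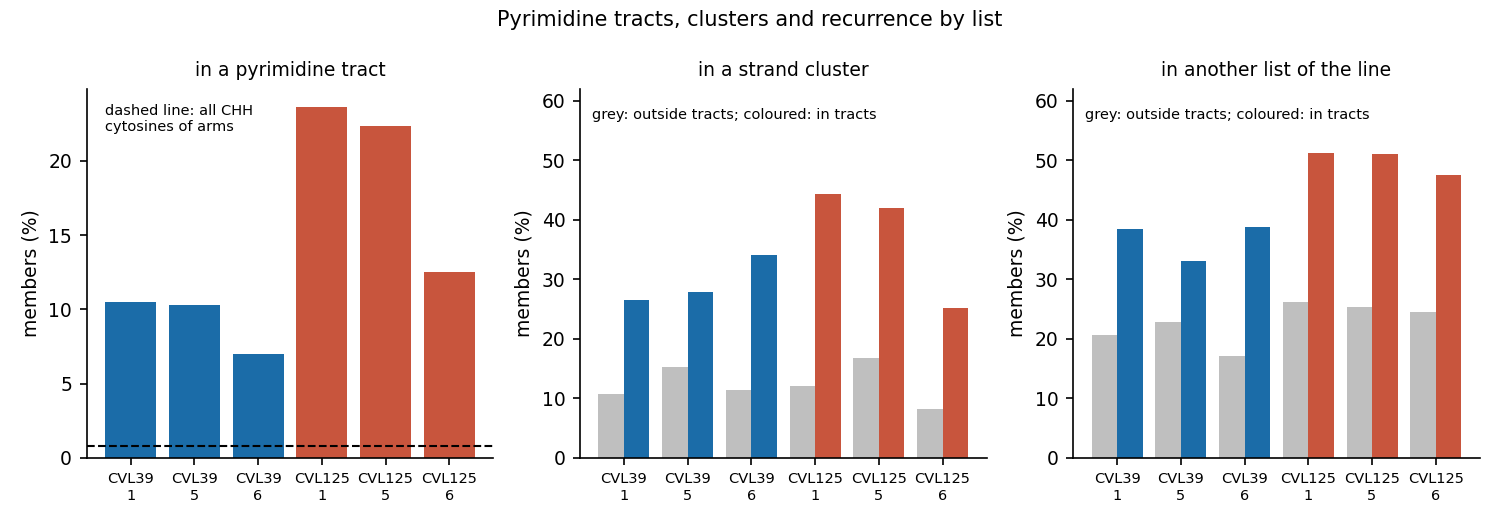
Percentage of members in a pyrimidine tract (left; dashed line, the 0.797% of all CHH cytosines of arms), in a strand cluster (middle) and in another list of the same line (right), by line and landscape. In the middle and right panels grey bars are members outside tracts and coloured bars those in tracts, which are higher in all 6 lists.

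Most cytosines were listed in 1 landscape only. In CVL39, 2644 of the 2986 cytosines were listed in 1 landscape, 298 in 2 and 44 in all 3. In CVL125, 2193 of 2640 were listed in 1, 376 in 2 and 71 in all 3. Those listed in all 3 landscapes are 44 of 2986 (1.47%) and 71 of 2640 (2.69%), against 14 of 1398 and 17 of 1111 CHG DMCs of arms and 430 of 9648 and 233 of 8686 CG DMCs. Because the lists of a line were all made against the same ancestral pool, a chance deviation of that pool recurs in them, so recurrence alone does not show a shared change of the selected populations.

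Within lists, 26.0% ± 5.23 of the members were found again in another list of the line, against 22.5% ± 3.56 of CHG DMCs (SD, n = 6; higher in 6 of 6 lists, exact sign-flip permutation p = 0.03125, adjusted p = 0.0446) and 37.6% ± 3.97 of CG DMCs (lower in 5 of 6 lists, n = 6, exact p = 0.0625, adjusted p = 0.0781). Without sites in tracts the difference from CHG DMCs was not found, with 22.8% against 22.5% (members higher in 3 of 6 lists, n = 6, exact p = 0.875, adjusted p = 0.875). In CVL125, 14.5% of the cytosines listed in 1 landscape were in tracts, 33.0% of those in 2 and 36.6% of those in 3, while pseudogenes fell from 21.5% to 12.8% and 8.45%. In CVL39, tracts made up 7.41%, 15.4% and 15.9% and pseudogenes 23.1%, 22.8% and 11.4%, the last being 5 of 44 cytosines. The largest overlap of any lists was that of landscapes 1 and 5 of CVL125, with 302 shared cytosines, 26.4% and 24.7% of each.

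Between lines, which have separate ancestral pools, 103 cytosines were shared, 3.45% of those of CVL39 and 3.90% of those of CVL125. Of these, 28 were in tracts (27.2%), 20 in pseudogenes, 23 in 5′ UTRs and 29 in CDS. Over all 6 lists, 4675 cytosines were listed in 1, 700 in 2, 137 in 3 and 11 in 4, and 0 in 5 or 6. The 11, named here after their counts were seen, include a tract cytosine in the CDS of DDL (chr3, position 7177437, plus strand, CTA), a factor of small RNA biogenesis, and 1 in the 5′ UTR of EOL2 (chr5, position 23668537, minus strand, CTC), of a family that limits ethylene synthesis. They also include the capital cytosines of the AT1G27560 and AT3G23085 sequences printed above, listed with p-values of 0.00308 to 0.0173 and of 0.0198 to 0.0406.

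Among the clusters named by rule, that of ATCSLA09, a mannan synthase of the cell wall, had the most cytosines listed in all landscapes of CVL39. It lies in the 5′ UTR on the coding strand and has 7 listed cytosines within 13 bp. Landscapes 1, 5 and 6 had 5, 7 and 6 of these, with 5 in all 3 and the smallest p of each landscape at 0.00197, 2.55e-05 and 0.000458. None was listed in CVL125, and no member lay on the opposite strand. Upstream of bZIP23, which activates genes of the zinc deficiency response, 4 cytosines within 12 bp and 605 bp before the gene were listed, 3, 3 and 4 of them in landscapes 1, 5 and 6 of CVL39 and 3 in all of them. The smallest p was 1.78e-07, in landscape 5, and again none was listed in CVL125.

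The largest group of CVL39 was in the 5′ UTR of AT3G23750, with 18 cytosines over 52 bp of which 13 are in tracts. Landscapes 1, 5 and 6 had 12, 2 and 16, so that landscape 5 stood apart, and 1 in CVL125. The group in the 3′ UTR of AT5G47540 had 13 cytosines in a CA repeat, all in landscape 6 of CVL39 and none in landscapes 1 and 5, and 7 members of landscape 5 of CVL125 lay in the same stretch. It accounts for 13 of the 41 members in 3′ UTRs in that list of CVL39. Other groups of CVL39 were in the CDS of QWRF2, of a family of microtubule-associated proteins, with 10, 3 and 0 cytosines by landscape, and in the 5′ UTR of RAB8, a small GTPase of vesicle traffic, with 5, 6 and 1.

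In CVL125, the group with the most cytosines in all landscapes lay 1379 bp from OXS2, a zinc finger protein of stress responses, in a tract. Of its 7 cytosines, 7, 6 and 4 were listed in landscapes 1, 5 and 6 and 4 in all 3, with a smallest p of 1.34e-05, and none in CVL39. The group 305 bp from the pseudogene AT3G23725 is outside tracts, and its 4 cytosines were all listed in all 3 landscapes of CVL125, with 1 of them also in landscape 5 of CVL39. Both groups span 13 bp.

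The largest group of CVL125 was in the CDS of FIP2, a protein that binds the flowering regulator FRIGIDA. It has 14 cytosines within 33 bp on the template strand, 0, 2 and 13 in landscapes 1, 5 and 6. All of these entries carry the p-value 0.0476. The next, in EXT6, an extensin of the cell wall, had 12 cytosines with 4, 8 and 3 by landscape. Its sequence repeats within the gene and among extensins, so reads may not be assigned to it with certainty. Of the pooled clusters, 12 of 144 in CVL39 and 23 of 149 in CVL125 had a cytosine listed in all 3 landscapes, and 13 overlapped a cluster of the other line.

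At the other extreme were loci with many scattered members on both strands. The gene with the most distinct cytosines in its body and the kilobase on both sides was the pseudogene AT1G10160 (chromosome 1, 3328971 to 3333470), with 66, all within the pseudogene. There were 16, 29 and 19 in landscapes 1, 5 and 6 of CVL39 and 4, 2 and 4 in CVL125. How often the lists of the lines separate at other loci was not counted, so these counts are not read as a difference between lines. Of the 66, 31 were on the plus and 35 on the minus strand, none was in a tract, 8 were listed in 2 or more landscapes of a line, and 0 in both lines. The same stretch held 18 entries in the CHG and 4 in the CG context.

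The adjacent genes GLR2.2 and GLR2.3, which encode glutamate receptor-like channels, had 63 and 57. For GLR2.2 there were 7, 18 and 18 in CVL39 and 9, 10 and 9 in CVL125, and for GLR2.3 17, 11 and 12 against 10, 10 and 6. In GLR2.2, 52 of the 63 were in CDS and 61.9% in CAA or CTA, and in GLR2.3 43 of the 57 were in CDS and 33.3% in CAA or CTA. There were 32 CHG and 20 CG entries at GLR2.2 and 41 and 25 at GLR2.3. The genes are similar copies, so reads may have been shared between them. At AT1G27560, a pseudogene of an F-box family, and the overlapping surroundings of AT1G27555 there were 47 and 44, most of them the same cytosines, with 15, 11 and 14 for AT1G27560 in CVL39 and 8, 10 and 6 in CVL125.

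Of the protein-coding genes of arms, 2895 of 23898 (12.1%) had at least 1 member in the body or the kilobase on either side. Among 24 genes of the methylation and demethylation machinery in the arms 7 did (29.2%). Longer genes offer more cytosines to be listed, and gene length was not taken into account, so these shares are not read as a difference. KTF1, a cofactor of RNA-directed methylation whose protein carries many repeats, had 6, all in landscape 5 of CVL39. NRPD2, a subunit of RNA polymerases IV and V, had 2, and CMT2, DDM1, NRPD1, DMS3 and KYP had 1 each, none listed in more than 1 landscape. The members of NRPD2, DMS3 and KYP lay in the flanking kilobase and not in the gene body. DRM2, DRM1, CMT3, MET1 and the demethylase genes ROS1, DME, DML2 and DML3 had 0. Among 6 arm genes known to be regulated by nearby methylation, FWA alone had a member, 1 in landscape 6 of CVL39.

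Along the arms, within 1 to 2 Mb of an interval there were 6.34 to 8.19 per 100000 CHH cytosines in the 6 lists, and beyond 4 Mb 2.58 to 4.63, the ranges not overlapping. Within 1 Mb there were 4.18 to 7.15. The short left arm of chromosome 2 had the highest density of the 10 arms in all 6 lists, at 11.4 to 15.7 in CVL39 and 7.51 to 8.58 in CVL125, from 185 members.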

How the data were processed

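The authors sequenced bisulfite-treated DNA on the SOLiD platform, aligned the reads with SOCS to Ler and Cvi sequences built from TAIR10, and compared each selected pool with the ancestral pool of its line. The deposited value is the authors' unadjusted p-value, at most 0.05, for each listed cytosine. The test, the coverage minimum and the tested cytosines are not given in the sources used here. The paper describes these SOLiD data as a low-coverage pilot, and the depth at each cytosine is unknown. Ancestral pools enter only through these comparisons.

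Positions were read as counted from 0 (99.4% or more then matched a cytosine on that strand) and are printed counted from 1. Context, sequence and place came from the nuclear chromosomes of RefSeq's copy of the TAIR10 assembly and its annotation, which is for the accession Col-0. Base differences of Ler and Cvi were not used. Where annotations overlapped, a cytosine took the first of CDS, 5′ UTR, 3′ UTR, intron, pseudogene and RNA gene. After these came the 1000 bp upstream or downstream of a protein-coding gene, then farther. Gene bodies were those of 27444 protein-coding genes, and there were 4843 pseudogenes. Transposons were not annotated as such and were not analysed as a class, and the pseudogenes may include transposon genes.

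Lines were compared with exact permutation tests over lists and sets of DMCs within lists with exact sign-flip permutation tests, both two-sided, with Benjamini-Hochberg adjustment over 5 and 10 comparisons. Shares carry exact Clopper-Pearson intervals at the 95% level where given. Clusters were named by rule: for each line, the 5 clusters pooled over its lists with the most cytosines in all 3 landscapes, and the 5 with the most cytosines. The genes were the 5 with the most distinct members, and fixed lists. The members, rules and gene lists were chosen with earlier results of these data known, and the pyrimidine tracts after seeing these. All 11 items of a test on simulated data were recovered. Python 3.11.15 with numpy 2.4.6, pandas 2.3.3, scipy 1.17.1 and matplotlib 3.10.9 was used. The alternatives are described in the closing section.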

Additional observations from a re-analysis of the deposited data

Results flagged for a closer look

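Chloroplast DNA, which is not part of the comparisons above and carries no CHH methylation in textbook accounts of leaves, also had CHH cytosines in the lists. Since the lists hold unadjusted p-values up to 0.05, chance calls are to be expected among its 39122 CHH cytosines, and an excess over chance was not tested. In landscapes 1, 5 and 6 there were 62, 44 and 56 in CVL39 and 31, 59 and 21 in CVL125, or 53.7 to 158 per 100000 chloroplast CHH cytosines, against 3.46 to 5.37 for the arm CHH DMCs. Between 0 and 3 of them per list were in pyrimidine tracts. Read depth in the chloroplast is unknown, and its part in these numbers was not tested.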

How the results depend on the processing

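The alternatives gave 197 values for 20 results, and 112 of them kept the direction and the side of the threshold, or a count within 1.5 times. An adjusted p of 0.0446 requires 7 of the 10 comparisons within lists to reach the smallest p of 0.03125, so by construction all 7 calls are lost when 1 of them is. The comparisons are members minus CHG DMCs for clusters (percentage points), gene bodies (ratio) and recurrence (points), minus CG DMCs for gene bodies, and minus CHH DMCs of pericentromeres for CAA and CTA (ratio), clusters and gene bodies. With p-values under 0.005 only, these were 14.2, 0.188, 8.95, -0.491, -0.866, 7.25 and 0.597. With runs of 3 or more CT or TC on either strand left out they were 13.5, 0.181, 2.98, -0.486, -0.798, 5.84 and 0.508. With the excluded intervals widened by 1 Mb, which leaves out the pericentromeric comparisons, they were 14.7, 0.192, 4.51 and -0.449. Without sites in pyrimidine tracts, an alternative chosen after seeing the data, they were 9.26, 0.119, 0.264, -0.548, -0.661, 2.10 and 0.470, and with 16 or more flanking pyrimidines left out 8.30, 0.0923, -0.775, -0.581, -0.606, 1.96 and 0.445, recurrence reversing. None of these passed.

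The following differences changed sign and passed under neither setting. The share in clusters, CVL39 minus CVL125, became 0.0759 points with p under 0.005 and 1.52 and 1.93 points with 18 or 16 flanking pyrimidines left out. The share in CAA or CTA became -0.285 points with 16. Members per list became -342 with CT runs kept. The share under a p of 0.005 became -8.14 points with CT runs kept and -0.991 with widened intervals. The same-strand share against CG DMCs became -0.0450 points for pairs 3 to 100 bp apart and -1.92 and -2.90 with 18 or 16 flanking pyrimidines left out. By contrast, the gene body ratio against the pericentromeres passed both as reported, at 0.509, and after changing sign with all annotated genes, at -0.0474. The same-strand comparison with CHG DMCs could not be made with p under 0.005, since some lists then held no pairs.

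Among the counts, with p under 0.005 there were 6 and 7 cytosines in all landscapes of CVL39 and CVL125, 13 and 17 pooled clusters and 5 cytosines in both lines. With CT runs kept there were 241 clusters in CVL125 and 232 cytosines in both lines. Clusters of 5 or more numbered 26 and 43. Recurrence within 50 bp gave 180 and 279 cytosines in all landscapes and 560 in both lines. With 18 flanking pyrimidines left out, CVL125 had 45 cytosines in all landscapes and 80 clusters, and with 16 there were 28 and 41 cytosines in all landscapes, 66 clusters in CVL125 and 62 cytosines in both lines. The cause of these changes was not tested, beyond the smaller number of sites that a stricter setting leaves.

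Leaving out each landscape in turn, CVL39 minus CVL125 ranged from -105 to 160 members per list, from 2.86 to 5.68 points in CAA or CTA, from -6.64 to -1.55 in clusters, from -9.40 to -4.05 in gene bodies and from -1.59 to 1.37 under a p of 0.005. Within lists, the same-strand difference ranged from 5.88 to 8.80 against CHG and from -1.19 to 2.43 against CG DMCs. Clusters ranged from 11.8 to 16.0 against CHG DMCs and from 4.61 to 7.47 against pericentromeres. The gene body ratio ranged from 0.177 to 0.194 against CHG, from -0.487 to -0.470 against CG DMCs and from 0.505 to 0.514 against pericentromeres. Recurrence ranged from 0.882 to 5.84 against CHG and from -9.30 to -6.52 against CG DMCs, and the CAA and CTA ratio from -0.828 to -0.791. Without a landscape, each list has only 1 other list of its line to recur in. The recurring share of members then fell from 26.0% to between 12.6% and 20.2%. The recurrence ranges are thus not on the scale of the full values. With 4 lists the smallest p is 0.125, so none could pass.

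The lines share landscape numbers. Counts of members in 1 Mb windows of same-numbered lists correlated at -0.0827, -0.0368 and 0.189, which cannot decide whether the lists are paired. The main comparisons between lines took the lists as unpaired. With the landscape as a replicate block the smallest p is 0.25, and the 5 comparisons between lines gave differences of 71.3 members and of 4.17, -3.51, -6.26 and 0.255 points with adjusted p from 0.833 to 1, with no call in either analysis.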
